A study of Mus musculus with 17 samples.

Results

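Il2ra and 9 genes of B-cell precursors, Vpreb1, Vpreb2, Vpreb3, Igll1, Rag1, Rag2, Dntt, Il7r and Ebf1, were followed through 17 cochlear RNA libraries to ask whether Il2ra moved with the precursor genes from library to library. Each of the 10 symbols had 1 entry among the 35285 genes of the table. Il2ra was among the genes that the study itself picked from the NE and brimonidine groups, so its levels in these groups are described here without a test, and the 9 other genes were listed with earlier results of these data known. Which values led to that list is not known, and the tests of whether deviations of Il2ra from its group mean go with those of the precursor genes are given with that limit.

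Every library came from the cochlear RNA of 1 wild-type male C57BL/6J mouse, 8 weeks old, taken 2 days after the exposure. The control group (3 mice) received saline and no noise. The NE group (7 mice) was exposed once for 2 h to noise of 8 to 16 kHz at 100 dB, and no injection is described for it. The brimonidine group (7 mice) was exposed likewise and was injected intraperitoneally 3 times with 1 mg/kg of brimonidine, which activates α2-adrenergic receptors. The labels give the cell type as interstitial cells, but no sorting is described and the RNA was that of the tissue as a whole. The inner ear is encased in bone, and neutrophil transcripts were plentiful: 11 neutrophil genes summed to between 9692 and 64945 FPKM per library, against 571 to 1420 FPKM for 12 genes of hair cells, supporting cells, stria vascularis and cochlear matrix. FPKM is the number of fragments on a gene divided by its exon length and by the fragments counted in the library, so levels of different genes can be compared per length. The number of fragments counted lay between 14457733 and 18288854 per library. In tissue RNA, fewer cells of a type and less RNA per cell cannot be told apart.

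B cells are made in the marrow through a series of precursor stages. In pro-B cells, the recombinase encoded by Rag1 and Rag2 joins the heavy chain gene segments, and terminal transferase, encoded by Dntt, adds bases at the joints. The heavy chain then reaches the surface with a surrogate light chain, made of the products of Vpreb1 or Vpreb2 and of Igll1 (lambda 5), as the pre-B receptor. IL-7, read through the receptor chain encoded by Il7r, sustains these cells, and EBF1 is a transcription factor that commits progenitors to the B lineage. Il2ra encodes CD25, the α chain of the IL-2 receptor, which marks small pre-B cells in mouse marrow but also regulatory and activated T cells, type 2 innate lymphoid cells and other cells.

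Vpreb1 and Vpreb2 are near copies of each other, and this bears on how well their fragments can be told apart. Their coding stretches of 429 bases each matched at 420 positions, with an identical run of 196 bases, whereas Vpreb1 and Vpreb3 matched at 219 positions. The 250 bases before the RefSeq start of each gene (GRCm38.p6) are shown for this pair in the gene's own direction, with the longest run they share, 91 bases, in capitals. The window of Vpreb1 is chr16:16869256-16869505 on the minus strand and that of Vpreb2 is chr16:17980315-17980564 on the plus strand.
Vpreb1: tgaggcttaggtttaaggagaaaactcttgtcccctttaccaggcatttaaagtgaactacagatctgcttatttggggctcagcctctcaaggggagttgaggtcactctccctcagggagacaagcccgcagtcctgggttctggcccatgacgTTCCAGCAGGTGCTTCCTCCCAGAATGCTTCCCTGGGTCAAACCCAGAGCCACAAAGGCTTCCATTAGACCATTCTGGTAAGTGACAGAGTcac
Vpreb2: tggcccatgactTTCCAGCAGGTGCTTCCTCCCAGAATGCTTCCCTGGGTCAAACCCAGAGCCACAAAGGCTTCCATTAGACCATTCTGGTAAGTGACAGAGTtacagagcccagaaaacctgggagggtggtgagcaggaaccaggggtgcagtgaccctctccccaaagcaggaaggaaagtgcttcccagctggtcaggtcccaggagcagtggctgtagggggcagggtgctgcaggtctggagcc
The shared run began 94 bases before the start of Vpreb1 and 238 bases before that of Vpreb2. How the authors' counting treated fragments that match both genes is not given in the sources used here, and the values of both are uncertain for that reason.

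Members of the set are neighbours at 2 places in the genome. Igll1 and Vpreb1 are both on the minus strand of chromosome 16 with 4416 bases between them, and Rag2 and Rag1 lie on opposite strands of chromosome 2 with 5752 bases between them. The windows of Igll1 (chr16:16863986-16864235, minus strand) and Il2ra (chr2:11642542-11642791, plus strand) are shown because the matches to EBF1 and E2A patterns in the first are not in the second. Capitals mark matches to CCCNNGGG, the core bound by EBF1, and to CAGGTG, an E-box bound by E2A, in Igll1, and to the 10-base NF-κB core pattern in Il2ra. Igll1 holds 2 matches to the NF-κB pattern as well, which are left in lower case.
Igll1: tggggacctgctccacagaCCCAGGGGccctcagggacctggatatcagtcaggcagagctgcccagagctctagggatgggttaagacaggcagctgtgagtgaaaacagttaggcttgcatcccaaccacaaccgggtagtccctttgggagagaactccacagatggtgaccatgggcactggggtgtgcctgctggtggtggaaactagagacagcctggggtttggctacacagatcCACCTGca
Il2ra: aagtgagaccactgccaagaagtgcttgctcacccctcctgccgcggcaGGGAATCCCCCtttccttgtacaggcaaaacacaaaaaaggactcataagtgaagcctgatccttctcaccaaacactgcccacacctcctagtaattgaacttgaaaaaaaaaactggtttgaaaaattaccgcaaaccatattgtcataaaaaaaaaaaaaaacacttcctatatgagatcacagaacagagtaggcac
On either strand, CCCNNGGG was found in 1 of the 9 precursor windows, that of Igll1, and in 11.7% of the 27025 windows of all genes. CAGGTG was found in 4 of the 9, those of Vpreb1, Vpreb2, Igll1 and Rag1, against 17.1% of all windows, and the matches in Vpreb1 and Vpreb2 fall in the run they share. Neither pattern was in the Il2ra window, which held 2 overlapping matches to the NF-κB pattern, found in 45.4% of all windows and in 5 of the 9 precursor windows, that of Igll1 included. The matches of different patterns did not overlap in these 2 windows. These letters describe the windows and were not tested for binding.

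Il2ra had the highest mean of the 10 genes per length, 15.2 FPKM over the 17 libraries. It had 15.2, 1.91 and 20.3 FPKM in control 1 to 3, then 10.7, 25.9, 17.4, 18.2, 28.4, 16.9 and 19.1 FPKM in NE 1 to 7, and 14.1, 13.9, 14.1, 7.69, 12.5, 9.34 and 12.5 FPKM in brimonidine 1 to 7. The brimonidine libraries all lay below the NE mean, the groups overlapped through NE 1, and control 2 was the lowest library of all. These levels rest on 166 fragments in control 2 and up to 2842 in NE 5. Group means were highest in the NE group (19.5 ± 5.92 FPKM, SD, n = 7), and those of the control group (12.5 ± 9.48, n = 3) and the brimonidine group (12.0 ± 2.53, n = 7) differed by less than the spread within the control group.

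**Figure D1:**
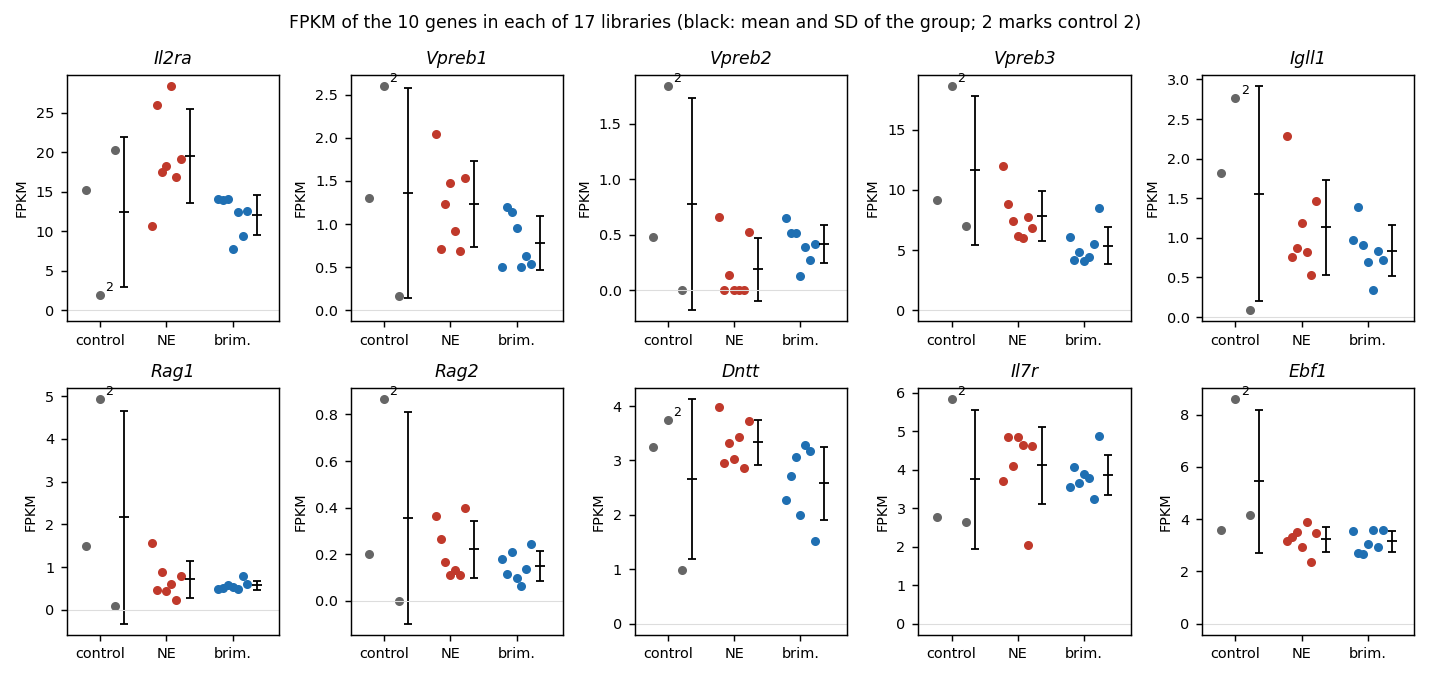
FPKM (vertical axes, each panel with its own scale) of the 10 genes in the 17 libraries, 1 point per library, with the mean and SD of each group in black and control 2 marked. Il2ra has its lowest value, 1.91 FPKM, in control 2, where each of the 9 precursor genes has its highest value among the controls.

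Of Vpreb1, Vpreb2, Vpreb3 and Igll1, Vpreb3 had the highest level per length. Vpreb3, whose product associates with immunoglobulin chains in B-cell precursors, had 9.18, 18.6 and 7.02 FPKM in control 1 to 3, between 5.98 and 12.0 in the NE group (median 7.38) and between 4.10 and 8.47 in the brimonidine group (median 4.85). Control 2 and NE 1 were the highest libraries, the same libraries in which Il2ra was lowest within its group. Il2ra divided by Vpreb3 was 0.103 in control 2 and 0.892 in NE 1, and between 1.48 and 4.75 in the other 15 libraries.

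The surrogate light chain genes were low. Vpreb1 had 1.31, 2.60 and 0.168 FPKM in control 1 to 3, between 0.684 and 2.05 in the NE group (median 1.23) and between 0.499 and 1.20 in the brimonidine group (median 0.627). Igll1, its partner in the surrogate light chain, had 1.82, 2.77 and 0.0862 FPKM in the controls, 0.527 to 2.29 in the NE group (median 0.871) and 0.338 to 1.39 in the brimonidine group (median 0.834). For both, control 3 was the lowest library of the 17 and control 2 the highest, and the NE and brimonidine groups overlapped. Vpreb2 was close to the limit of detection, with 47 fragments over the 17 libraries, 12 of them in control 2, and none in control 3 or in 4 of the 7 NE libraries. A count of 0 there allows up to 3 fragments per library.

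The recombination genes showed the same order in the controls. Rag1 had 1.49, 4.93 and 0.0941 FPKM in control 1 to 3, 0.230 to 1.57 in the NE group (median 0.604) and 0.494 to 0.793 in the brimonidine group (median 0.534). Control 2 held 495 of the 1693 Rag1 fragments of all libraries, and control 3 held 10. Rag2 stayed below 1 FPKM in every library, at 0.202, 0.866 and 0 FPKM in the controls, 0.111 to 0.398 in the NE group and 0.0657 to 0.246 in the brimonidine group. Dntt, which is active in adult but not in fetal B lymphopoiesis, had 3.25, 3.75 and 0.994 FPKM in the controls, 2.86 to 3.99 in the NE group (median 3.33) and 1.53 to 3.28 in the brimonidine group (median 2.72). All 7 brimonidine libraries were below the NE mean of Dntt, and the groups overlapped.

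Il7r and Ebf1 are not restricted to the pre-B stage, and their levels in the NE and brimonidine groups lay close together. Il7r had 2.76, 5.83 and 2.64 FPKM in control 1 to 3, 2.04 to 4.84 in the NE group (median 4.62) and 3.23 to 4.88 in the brimonidine group (median 3.79). NE 6 was the lowest library for Il7r, at 2.04 FPKM, with the other 6 NE libraries at 3.71 or more. Ebf1, which is also transcribed in stromal cells, had 3.59, 8.59 and 4.16 FPKM in the controls, 2.34 to 3.87 in the NE group (median 3.32) and 2.65 to 3.58 in the brimonidine group (median 3.05). Each brimonidine library lay below each control library for Ebf1.

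The controls were not alike, and control 2 stood apart from the other 16 libraries. Its median correlation with the others was 0.831, against 0.947 to 0.981 for the rest, and 10 genes of cerebellar and hindbrain neurons summed to 810 FPKM in it, 324 and 326 FPKM in the other controls and 27.7 to 109 FPKM in the exposed libraries. In the same library, the neutrophil genes had their lowest sum, 9692 FPKM, and 7 erythroid genes their highest, 10673 FPKM. The part of these differences in the values below was not tested.

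In the control group, Il2ra ran against the precursor genes. The order control 2, control 1, control 3 from high to low held for 8 of the 9 precursor genes, all but Ebf1, and for 21.0% of the 16416 genes with at least 1 FPKM in 3 libraries. Il2ra had the reverse order, which 15.5% of those genes shared and none of the 9 did. Control 2 was the highest control for 9 of the 9, as it was for 51.2% of all these genes. With 3 libraries this is a description, without a test. Among the other lists, all 7 erythroid genes had the order of the precursor genes, and all 11 neutrophil genes and all 7 plasma cell genes were lowest in control 2.

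**Figure D2:**
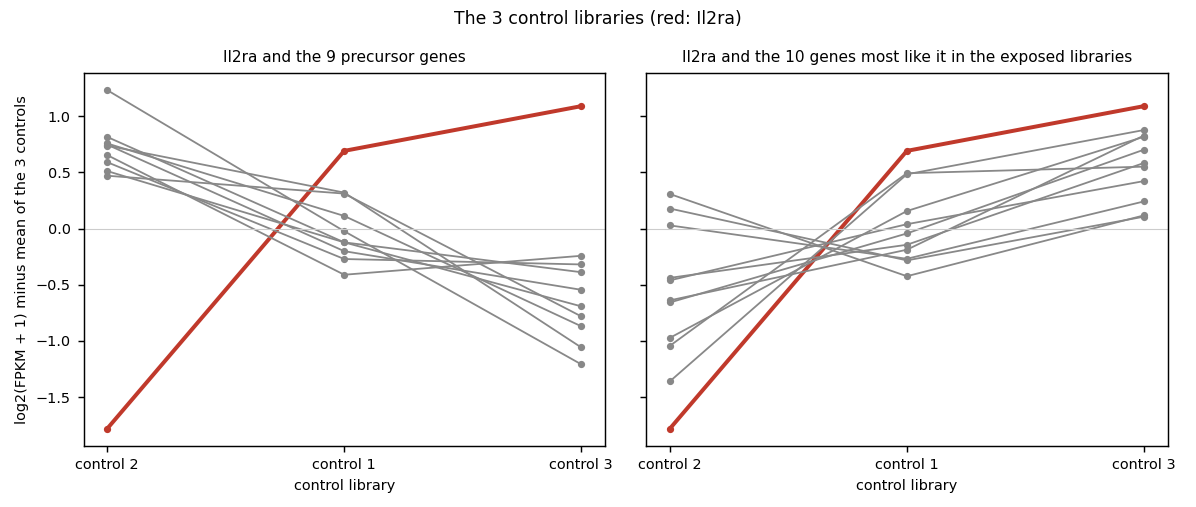
log2(FPKM + 1) in the 3 control libraries, minus the mean of the 3, for the 9 precursor genes (left, gray), the 10 genes most like Il2ra in the exposed libraries (right, gray) and Il2ra (red in both). Of the precursor genes, 8 fall from control 2 through control 1 to control 3 while Il2ra rises, and 7 of the 10 genes on the right rise with it.

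In the 14 exposed libraries, no correlation of Il2ra with the precursor genes was detected. With the mean of its group taken from each value of log2(FPKM + 1), Pearson's r of Il2ra with the 9 genes had a median of -0.20, against 0.0072 for the 15706 genes tested between the brimonidine and NE groups, and 2 of the 9 were above 0. No pair passed the test (permutation within groups, two-sided, Benjamini-Hochberg over 9 pairs, smallest adjusted p = 0.525), and none had an unadjusted p under 0.05, the smallest being 0.111 for Rag1. An r of this size with 14 libraries does not show that the genes are unrelated.

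Member by member, the Vpreb genes, Igll1 and the recombination genes had r below 0. Of the former, r was -0.45 for Vpreb1 (Spearman's rho -0.30), -0.34 for Igll1 (rho -0.15), -0.28 for Vpreb3 (rho -0.11) and -0.20 for Vpreb2 (rho 0.05). For the recombination genes it was -0.52 for Rag1 (rho -0.38), -0.13 for Rag2 (rho 0.09) and -0.09 for Dntt (rho -0.10). The 2 genes above 0 were Il7r (r 0.35, rho 0.41) and Ebf1 (r 0.30, rho 0.37). By permutation, adjusted p ranged from 0.525 to 0.754 for Pearson's r and from 0.627 to 0.909 for rho. Without NE 1 and brimonidine 4, the 2 libraries whose Il2ra deviated farthest, the median was 0.04 and r lay between -0.15 for Rag1 and 0.47 for Il7r. Chosen instead by the level of Il2ra before the group mean was taken off, NE 5 and NE 2 were farthest, and without them r was -0.52 for Rag1 and between -0.27 and 0.16 for the others.

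The sign of 5 of these 9 values turned without 1 library, NE 1. NE 1 had the lowest Il2ra of its group and the highest Vpreb1, Vpreb2, Vpreb3, Igll1, Rag1 and Dntt. Without it, r was above 0 for 7 of the 9 genes, all but Vpreb1 (-0.18) and Rag1 (-0.08), and the median was 0.14, between -0.18 and 0.37, with 0.045 for all genes tested, and again no pair passed.

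**Figure D3:**
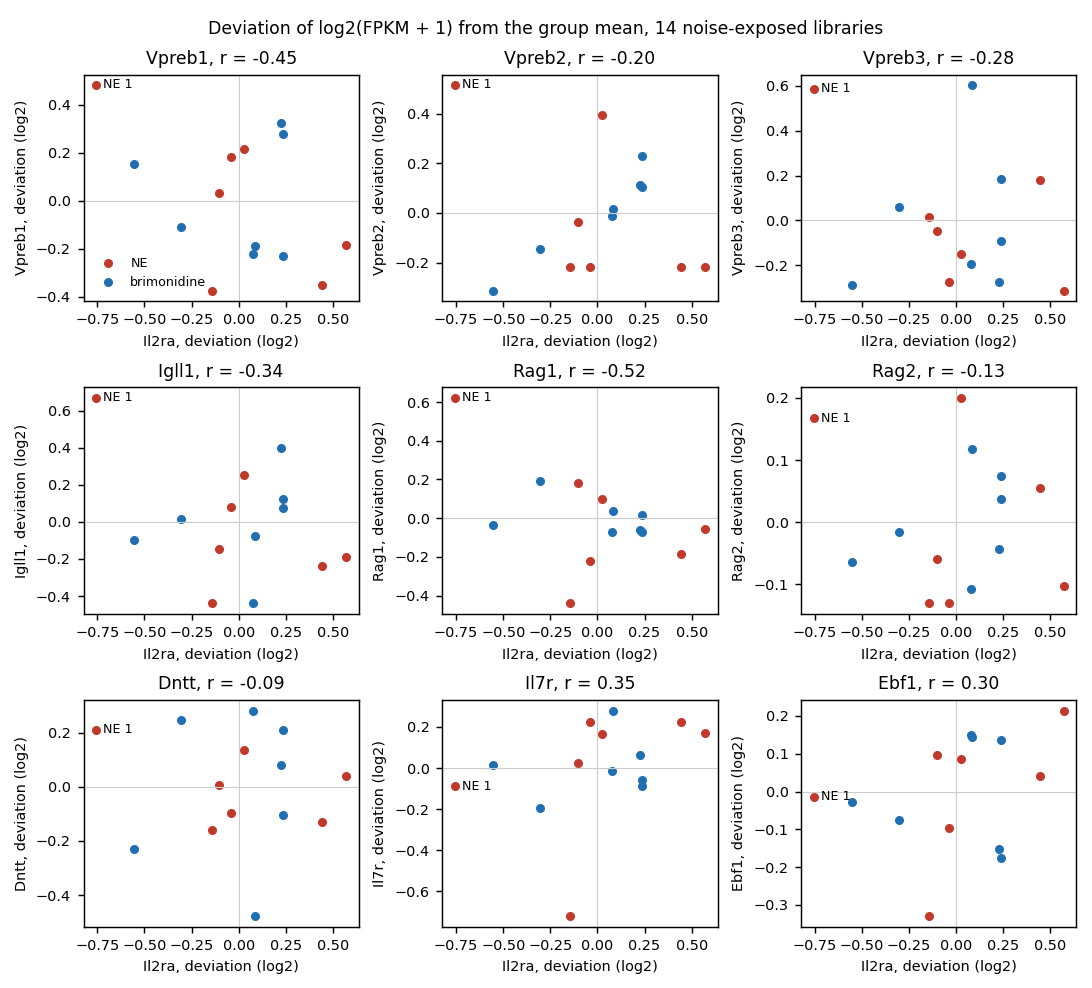
Deviation of log2(FPKM + 1) from the group mean for Il2ra (horizontal) and each of the 9 precursor genes (vertical) in the 7 NE (red) and 7 brimonidine (blue) libraries, with r above each panel. NE 1 lies at the upper left for Vpreb1, Vpreb2, Vpreb3, Igll1, Rag1 and Dntt.

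Within the groups taken alone, 1 of 18 relations passed. In the brimonidine group, Vpreb2 rose with Il2ra (r 0.96, exact permutation test, p = 0.000595, adjusted p = 0.0107 over 18 relations), while its rho of 0.96 did not pass (exact permutation test, adjusted p = 0.05). The relation no longer passed without brimonidine 1, 4, 5, 6 or 7, that is in 5 of the 7 fits that left out 1 library of the group. It rested on 1 to 5 fragments of Vpreb2 per library, r was 0.86 without the 2 libraries farthest in Il2ra, and in the NE group it was -0.67 (exact permutation test, adjusted p = 0.411). The difference between the groups was not tested. In the NE group, 7 of the 9 genes had r between -0.70 and -0.34, and in the brimonidine group 8 of the 9 had r between -0.39 and 0.39.

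Between the precursor genes themselves, r was above 0 in 29 of 36 pairs, with a median of 0.29 (range -0.28 to 0.82). The highest value was for the neighbours Vpreb1 and Igll1 (0.82), followed by Vpreb2 with Rag2 (0.76) and with Igll1 (0.74). Rag1 and Rag2 had 0.60, and Il7r with Ebf1 0.64, although both had lower values with the Vpreb genes and Igll1, between -0.22 and 0.22. Without NE 1, 28 of the 36 pairs were above 0 and the median was 0.27. These pairs share libraries and depth and are given without a test.

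The genes most like Il2ra were not of the B lineage. Ranked by r over the 14 exposed libraries with the group mean removed, among genes tested with a mean of at least 1 FPKM, the first 10 included F3 (tissue factor, 0.95), Pdpn (podoplanin, 0.94), Vtcn1 (a member of the B7 family, 0.92), Tnip3 (an inhibitor of NF-κB signaling, 0.91), Krt7 (a keratin of simple epithelia, 0.89), Eya2 (a transcriptional cofactor, 0.89), Cldn4 (a tight junction claudin, 0.89), Cxcl5 (a neutrophil chemokine of epithelial cells, 0.88) and Icam1 (an adhesion molecule for leukocytes, 0.88). They were chosen for these values, and no test is given. Without NE 1 the r of these 10 genes lay between 0.79 and 0.93.

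Cxcl5 and Tnip3 show how close these genes ran to Il2ra from library to library. Cxcl5 had 31.2 FPKM in NE 1 and 46.9 to 80.4 in the other NE libraries, and 19.3 to 50.9 in the brimonidine group, lowest in brimonidine 4, the library with the least Il2ra of that group. Tnip3 had 0.788 FPKM in NE 1 and 1.19 to 1.93 in the other NE libraries, and 0.467 to 1.02 in the brimonidine group, again lowest in brimonidine 4. The controls, which the ranking did not use, followed the order of Il2ra for 7 of the 10 genes, among them Vtcn1, Tnip3, Krt7, Cldn4, Cxcl5 and Icam1, against 15.5% of all genes. Cxcl5, for instance, had 51.6, 13.7 and 68.2 FPKM in control 1 to 3. For F3, Pdpn and Eya2, control 1 was the lowest control.

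Gene lists of the cells that can carry CD25 were set beside the precursor genes. The 10 tested genes of regulatory and other T cells all had r above 0 with Il2ra, with a median of 0.37, where 50.8% of all genes tested were above 0, and without NE 1 the median was 0.52. The most abundant of them were low: Cd4, the helper T-cell coreceptor, had 1.75 to 3.92 FPKM over the exposed libraries (r 0.48), Lck, a T-cell kinase, 2.04 to 3.62 (r 0.57) and Tnfrsf18 1.71 to 3.07 (r 0.22). Foxp3, which defines regulatory T cells, lay between 0.0688 and 0.842 FPKM in the 17 libraries and did not reach the filter, and Il2 itself was at 0.146 FPKM or less. The thymocyte list had a median of 0.32 (0.20 without NE 1) over 4 tested genes and the list of type 2 innate lymphoid cells, mast cells and basophils 0.25 over 11, 8 of them above 0. Per length, Il2ra was 3.13 to 9.69 times as abundant as Cd4 in the exposed libraries.

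The B-lineage lists did not move as one. Genes of B-lineage identity and pre-B receptor signaling had a median r of -0.21, with 6 of 20 above 0. Among their most abundant members r was -0.47 for Cd24a, a surface marker that neutrophils and red cell precursors also carry, -0.25 for Ighm, the heavy chain of IgM, and -0.28 for Lyn, a kinase of myeloid and B cells. Mature B-cell genes had a median of 0.23 over 7 genes, plasma cell genes 0.25 over 7, and end-joining genes, which repair the breaks made by RAG, -0.10 over 10 (-0.034 without NE 1). Of the 3 most abundant plasma cell genes, Jchain had 0.11, Xbp1 0.53 and Mzb1 0.27, and the list reached from -0.63 (Tnfrsf17) to 0.82 (Sdc1), both named after their values were seen. Without NE 1 the B-lineage median was 0.22 and that of mature B-cell genes 0.47, so the B-lineage list changed sign with that library while the mature B-cell and plasma cell lists (0.38) did not.

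Genes of dividing cells, neutrophils and erythroid cells lay on the other side. The 5 proliferation genes had r between -0.64 and -0.40 with Il2ra (Mki67 -0.61, Top2a -0.64), a median of -0.53 and -0.49 without NE 1. The 11 neutrophil genes were all below 0 (median -0.13), as were the 7 erythroid genes (median -0.39). Without NE 1 the neutrophil median was -0.26, with 1 of 11 above 0, and the erythroid median -0.056. Cochlear genes had 9 of 10 above 0 (median 0.27, and 0.43 without NE 1), with 0.62 for Coch, the matrix protein cochlin, and 0.57 and 0.50 for Gjb2 and Gjb6, the connexins of supporting cells. These medians describe lists whose genes share libraries, and none was tested.

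**Figure D4:**
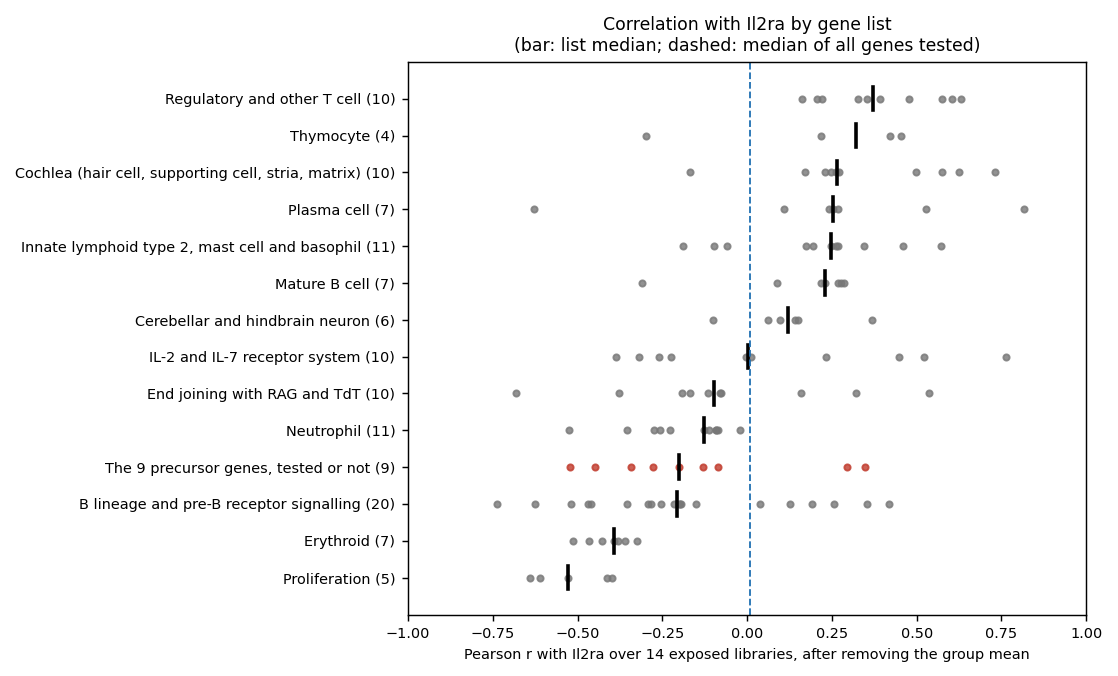
Pearson's r with Il2ra over the 14 exposed libraries after removal of the group mean, 1 point per gene and 1 row per list with the number of genes, ordered by the list median (black bar), and the median of all genes tested (dashed). The 9 precursor genes (red) have a median of -0.20 and the T-cell genes 0.37.

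The genes of the IL-2 and IL-7 receptor system spread on both sides, with 5 of 10 above 0 and a median of 0.0032. Cish, a target of STAT5 signaling, had 0.76, and Il2rb, the β chain that pairs with CD25, had 0.45. Il2rg, the γ chain shared by several cytokine receptors, had 0.23. These 3 were picked out after their values were seen. The most abundant genes of the list had r near or below 0: Jak1 -0.23, Crlf2, a receptor chain for TSLP, 0.01 and Jak3, the kinase bound to the γ chain, -0.26. Il2rb lay between 2.84 and 8.52 FPKM and Il2rg between 2.40 and 5.49 FPKM over the 17 libraries, both lowest in control 2 as Il2ra was. Of the 10 genes of this list at 1 FPKM or more, 8 were lowest in control 2, against 35.1% of all genes.

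Compared between groups by limma on all libraries with equal weights, none of the precursor genes passed the thresholds of the study, an adjusted p under 0.05 together with a change of at least 1 on the log2 scale. The study set these thresholds for its own count-based test, which also called genes between brimonidine and NE, where limma called no gene. Some other settings called 1 gene against the controls. In NE these were Dntt with array weights, among 137 genes called higher of 15950, and Rag1 without control 3, among 725 called lower of 15477. In brimonidine it was Vpreb3, with voom (1222 called lower of 15924) or a pseudocount of 0.1 (1155 of 15947). Vpreb3 was also called without control 1 (900 of 15604), without control 3 (833 of 15555) and without brimonidine 7 (899 of 15794). Fold changes are on the scale of log2(FPKM + 1), which understates the change of low genes. Between the NE and control groups, 8 of the 10 genes passed the filter on low values, all but Vpreb2 and Rag2. Il2ra is described only, and 0 of the other 7 were called by limma or by voom on the recovered fragments, where limma called 5.76% of 15950 genes. Only Ebf1 had an unadjusted p under 0.05 by limma, where 32.9% of all genes had. Its log2 fold change was -0.54 (standard error 0.20), with an adjusted p of 0.0971 by limma and p = 0.0167 by the exact permutation test. Ebf1 was below the control mean in each of the 7 NE libraries, and its log2 fold change was -0.21 without control 2. Il2ra had a log2 fold change of 0.98 (standard error 0.52), a description, and of 0.09 without control 2.

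Brimonidine was compared with NE at the same exposure and time. Of the 10 genes, 7 passed the filter, all but Vpreb2, Rag1 and Rag2. Il2ra is described only, and Vpreb1 and Igll1 reached the filter only through the NE libraries, 4 and 3 of which were at 1 FPKM or more, so both are given as values. Of the other 4 genes 0 were called by limma or by voom, as were 0% of the 15707 genes tested. Il2ra had a log2 fold change of -0.63 (standard error 0.18), given as a description. By limma, Vpreb3 (log2 fold change -0.47, standard error 0.15) and Dntt (-0.29, standard error 0.11) were lower at an unadjusted p under 0.05, 2 of these 4 genes, where 2.46% of all genes were. The smaller adjusted p by limma was 0.661, for Vpreb3, so neither held over all genes. Exact permutation tests of the single genes, without adjustment, gave p = 0.0157 for Vpreb3, 0.0262 for Dntt, 0.779 for Il7r and 0.774 for Ebf1. Of the genes below the filter, Vpreb2 had a difference of 0.27 (exact permutation test, p = 0.0775), the only one of the 9 precursor genes above 0. Vpreb3 was below the NE mean in 6 of 7 brimonidine libraries, and Dntt in 7 of 7. Vpreb1 had a log2 fold change of -0.31 (standard error 0.15) and was below the NE mean in 7 of 7. Igll1 had a log2 fold change of -0.19 (standard error 0.16), Il7r of -0.05 (0.13) and Ebf1 of -0.02 (0.08). With single libraries left out, Igll1 ranged from -0.26 to -0.077 and Il7r from -0.17 to -0.012.

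In the related lists, the same comparison gave single genes at an unadjusted p under 0.05 and none after adjustment. The list of B-lineage and pre-B receptor signaling had 2 of 20 lower, Blnk (-0.26), the adaptor of the pre-B receptor, and Pou2af1 (-0.41), a B-cell coactivator, and the plasma cell list had 1 of 7 lower, Sdc1 (-0.36), the surface proteoglycan syndecan-1, where 2.46% of all genes were lower. All 7 plasma cell genes had log2 fold changes below 0 (median -0.28). The thymocyte list had 1 of 4 lower, Thy1 (-0.26), and that of type 2 innate lymphoid cells, mast cells and basophils 1 of 11, Areg (-0.37), the growth factor amphiregulin. Mature B-cell genes had 2 of 7 higher, Ighd (0.58), the heavy chain of IgD, and Cd22 (0.22), an inhibitory receptor, where 3.3% of all genes were higher. These genes were named after their values were seen, and adjusted p by limma was 0.521 or more for each. The end-joining, IL-2 and IL-7 receptor and T-cell lists had none.

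Between the brimonidine and control groups, 7 of the 10 genes passed the filter, Il2ra among them as a description, and 0 of the other 6 were called by limma, which called 5.73% of 15947 genes. With voom 1 was called, Vpreb3, where voom called 1222 genes lower and 56 higher of 15924. Unadjusted p under 0.05 by limma was reached by 2 of the 6, Vpreb3 and Ebf1, both lower. Of all 15947 genes, 3505 were lower and 2167 higher at that level. Vpreb3 passed the adjusted p alone (limma, adjusted p = 0.0415, log2 fold change -0.91 with a standard error of 0.26), as did 12.3% of all genes in that direction. It was below the control mean in 7 of 7 brimonidine libraries, as were the other precursor genes except Dntt and Il7r. Control 2 (18.6 FPKM) raised the control mean of Vpreb3, and brimonidine 7 (8.47 FPKM) lay above control 3 (7.02 FPKM). Without control 2 the log2 fold change of Vpreb3 was -0.54 and its adjusted p by limma 0.154, and the adjusted p was also above 0.05 on leaving out any 1 of brimonidine 1 to 6. Ebf1 fitted at -0.56 on the log2 scale (limma, adjusted p = 0.0716, standard error 0.20) with no overlap between the groups, a pattern that 14.3% of all genes shared (exact permutation test, p = 0.00833, the smallest that 7 against 3 allows). Without control 2 it was -0.24. The fold change of Il2ra was 0.35 (standard error 0.49) with control 2 and -0.54 without it, so its direction against the controls depended on that library. NE and brimonidine were compared with the same 3 controls.

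**Figure D5:**
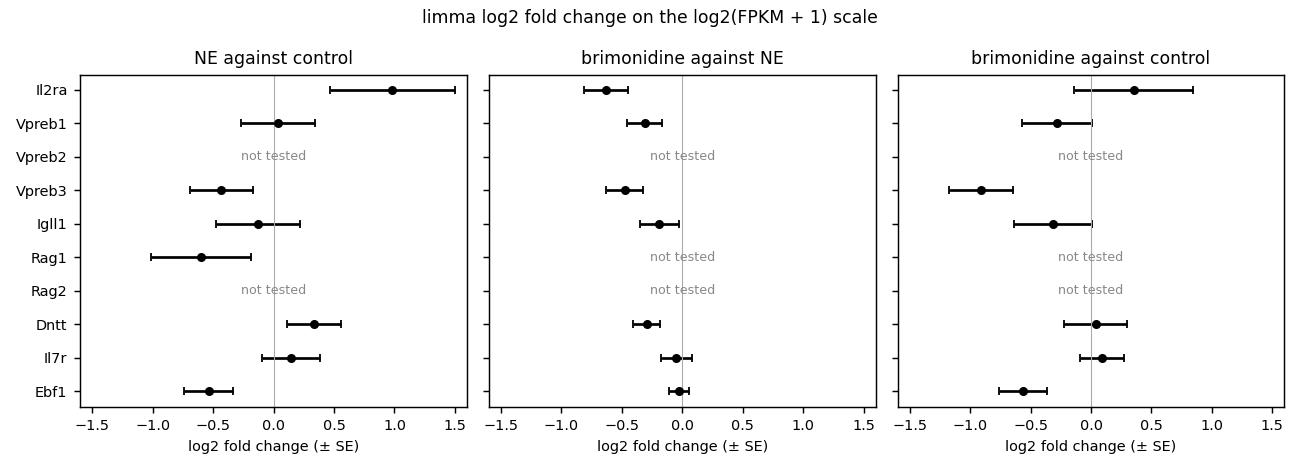
log2 fold change with its standard error (limma, log2(FPKM + 1)) of the 10 genes in the 3 comparisons, and the genes that did not pass the filter marked as not tested. In brimonidine against NE the values run from -0.63 for Il2ra, which the study picked, to -0.02 for Ebf1. Vpreb1 and Igll1 passed the filter there only through the NE libraries, and Vpreb2, below the filter, had a difference of 0.27.

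Some of the related genes passed the adjusted p against the controls. Of the B-lineage and pre-B receptor signaling genes, 2 of 20 had an adjusted p under 0.05 and were higher in the NE group (Ikzf1 0.70 and Syk 0.42), where 2.12% of all genes were higher, and 3 of 18 were higher in the brimonidine group (Ikzf1 0.75, Syk 0.46 and Btk 0.48), against 3.47% of all genes. Ikzf1 encodes the lymphoid transcription factor Ikaros, and Syk and Btk are kinases of the pre-B and B-cell receptors, and all 3 are also used in myeloid cells. In the brimonidine group Dclre1c, which encodes the end-joining nuclease Artemis, was higher by 0.33 and Il15ra by 0.46, 1 gene of 10 in each of their lists. Of the 5 proliferation genes, 2 were higher in both exposed groups, Mki67 (0.53 in NE and 0.57 in brimonidine) and Top2a (0.59 and 0.63). All of these were named after their values were seen. The 11 neutrophil genes, none of which passed, had log2 fold changes above 0 in both comparisons, with medians of 0.76 in NE and 0.82 in brimonidine. Without control 2 the medians were 0.09 and 0.14, with 4 and 2 of the 11 below 0, and the sum of these genes was 9692 FPKM in control 2 against 43846 and 45991 FPKM in the other controls. Without control 2, an alternative added after the data were seen, none of these genes passed the adjusted p in NE, and in brimonidine Ikzf1 (0.39) and Il15ra (0.29) did. The log2 fold changes of Ikzf1 and Syk in NE were then 0.33 and 0.23. Thy1, of the thymocyte list and also a neuronal surface protein, had a log2 fold change of -0.89 in the NE group (limma, adjusted p = 0.0376, and 0.135 without control 2) and of -1.15 in the brimonidine group, where it passed both thresholds (-0.77 without control 2, the adjusted p alone), and the 10 cerebellar and hindbrain genes were lower in both exposed groups and passed them too.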

How the data were processed

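Total RNA of the cochleae of 17 mice was extracted with TRIzol, made into strand-specific mRNA libraries and sequenced on an Illumina NovaSeq. The values deposited by the authors are FPKM, for 35285 genes. The submitters' processing notes name Trimmomatic, HISAT2, HTSeq, Cufflinks and the mouse build mm10, with no versions or settings, and whether the counting used strand is not given in the sources used here. Multiplied by merged exon lengths (GENCODE M21, or a length solved from the values for 4 of the 10 members), the values gave whole fragments within 0.02 for 34946 of 35029 genes above 0 (99.8%).

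Genes at 1 FPKM or more in 3 or more of the compared libraries were fitted with limma 3.58.1 (R 4.3.3; lmFit, eBayes with trend) on log2(FPKM + 1), with Benjamini-Hochberg adjustment over all genes and only the 2 groups compared in a model. The study's own count-based test was not used, and the recovered fragments were fitted with voom as an alternative. On simulated data, 185 of 200 changed genes were called with 4 false calls among 15883 genes for NE against control, and 196 of 200 with 2 false calls among 15628 genes for brimonidine against NE. The simulation changed only genes with many fragments, by 2 on the log2 scale. It used 1 spread for all genes and held no library like control 2. Vpreb1, Vpreb2, Igll1 and Rag2 had fewer fragments than the changed genes, so these shares do not apply to them. Single genes were compared by exact two-sided permutation tests of group means. Correlations used 100000 permutations within groups, or all pairings within a group, in Python 3.11.15 with scipy 1.17.1. Samples of a group were separate mice, and p-values measure the spread between them. Counts of 0 and their limit of 3 fragments cover counting error only. Promoter windows are from RefSeq (GRCm38.p6), and all 10 members matched. Coding stretches were taken as the longest open reading frame of the GENCODE M21 transcripts.

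The members and the 14 gene lists were chosen with earlier results of these data known. The text names the members, the 3 most abundant genes of a list or any gene that passed both thresholds, and the 10 genes most like Il2ra, 1 of which is not reported here, and it says where another gene was named after its values were seen. Alternatives were a replicate block, array weights, a joint model of all 17 libraries, leaving out each library, a pseudocount of 0.1, testing without the filter, and scaling by quantiles, the median ratio or equal totals. A voom fit of the recovered fragments, the correlations of 16 libraries without control 2, the alternatives for the relations within groups, the fits of the related lists without control 2 and the correlations without the 2 libraries of farthest deviation were added after the data were seen.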

Additional observations from a re-analysis of the deposited data

Results flagged for a closer look

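Among the values of the 10 genes in the NE and brimonidine groups, 20 groups of 7 libraries in all, 2 held a library whose gap to its nearest neighbour, as a share of the group's range, passed Dixon's critical value for 7 values, and chance alone flags about 1 group in 20. Rag1 had 0.793 FPKM in brimonidine 6, with 0.494 to 0.610 in the other 6 libraries of the group. Il7r had 2.04 FPKM in NE 6, with 3.71 to 4.84 in the other 6.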

How the results depend on the processing

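No precursor gene was called between brimonidine and NE under any of the alternatives, and no pair of Il2ra with a precursor gene passed in any. Of NE against control, 1 member was called with array weights (Dntt, log2 fold change 1.00) and without control 3 (Rag1, -1.20), and the count ranged from 0 to 1 with single libraries left out. Of brimonidine against control, 1 member, Vpreb3, was called with a pseudocount of 0.1 and with voom on the recovered fragments, and 0 to 1 with single libraries left out. The numbers of all genes called in the settings that called a member are given with the group comparisons above. The median r of Il2ra with the 9 genes was -0.67 over all 17 libraries, -0.26 over the 16 without control 2, and ranged from -0.42 to 0.14 with single exposed libraries left out. The 1 relation that passed within a group was lost in 5 of the 7 fits that left out a library of its own group (0 to 1).

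Directions against the controls depended on the setting. With array weights, log2 fold changes turned for Vpreb3 (0.034), Igll1 (0.82) and Rag1 (0.50) in NE and for Il2ra (-0.72), Vpreb1 (0.43) and Igll1 (0.56) in brimonidine. Igll1 in NE also turned with a pseudocount of 0.1 (0.16), quantiles (0.053) and voom (0.43), and Igll1 in brimonidine with voom (0.040). Leaving out single libraries gave ranges across 0 in NE for Vpreb1 (-0.40 to 0.41), Igll1 (-0.66 to 0.24), Dntt (-0.058 to 0.57) and Il7r (-0.018 to 0.44), in brimonidine for Il2ra (-0.54 to 0.90), Vpreb1 (-0.71 to 0.10), Dntt (-0.35 to 0.27) and Il7r (-0.067 to 0.39), and between brimonidine and NE for Ebf1 (-0.080 to 0.011). The r of Il2ra ranged for Vpreb2 from -0.45 to 0.31, for Vpreb3 from -0.48 to 0.14, for Igll1 from -0.46 to 0.12, for Rag2 from -0.24 to 0.22 and for Dntt from -0.28 to 0.13, and over all 17 libraries it was -0.40 for Il7r and -0.60 for Ebf1. The cause was not tested. The adjusted p of Vpreb3 in brimonidine against control ranged over its alternatives from 0.012 to 0.272.

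Deviations of same-numbered libraries had correlations between -0.22 and 0.083, so no sign of pairing by number was seen, which does not exclude it. With the replicate block, 0 members were called in each comparison, as without it, and Vpreb3 against control had a log2 fold change of -0.97. The low fragment numbers of Vpreb2 and Rag2 limited both genes.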

Other observations

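Across the 14 exposed libraries Il2ra divided by Vpreb3 had its highest value in NE 5 (4.75) and its lowest in NE 1 (0.892), both of the NE group, while the 7 brimonidine libraries lay between 1.48 and 3.36. Cd79a, which is carried from the pro-B to the mature B-cell stage, had 36.2 FPKM in NE 1, the highest of the exposed libraries, and 14.6 FPKM in NE 6, the lowest. Control 2 had 38.5 FPKM of it, the highest control, and NE 2 had 35.3 FPKM, close to NE 1. NE 2 had 25.9 FPKM of Il2ra and NE 1 had 10.7 FPKM. The r of Cd79a with Il2ra was 0.13 over the 14 exposed libraries with the group mean removed. Cd79a was named after its values were seen.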
